A study of Mus musculus with 9 samples.

Results

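The heat shock factors HSF1 and HSF2, and the chaperones and co-chaperones that fold proteins in the cytosol and in mitochondria, were followed in RNA-seq of mouse enamel organs as 46 genes named by symbol, out of 54532 genes in the deposited table. Each of the 46 symbols was found on 1 row. They are 2 factors, 16 genes assigned from general knowledge of the heat shock response to an inducible class, and 28 genes assigned to a constitutive or tissue-restricted class. The enamel organs came from the first molars of male C57BL/6 pups at postnatal day 12, 5 exposed to early life adversity (ELA) and 4 controls, with 1 library per mouse. ELA cages held little bedding and nesting material from postnatal day 2 to day 12, whereas control cages held ample amounts. All pups of both groups were offspring of Crh-IRES-Cre dams and Ai14 tdTomato males, so they carried a Cre recombinase expressed with corticotropin-releasing hormone and a red fluorescent reporter. The condition was applied to a dam and its litter together.

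HSF1 is the transcription factor that responds to unfolded protein. It is held inactive by chaperones, and when these are drawn away it forms trimers, binds heat shock elements (inverted repeats of the unit GAA) in promoters, and drives the inducible chaperones. The HSP70 proteins hold exposed hydrophobic stretches of a client, J-domain proteins bring the client and stimulate the ATPase, HSP110 and BAG proteins release the nucleotide, and HSP90 with its co-chaperones finishes kinases and steroid receptors, the glucocorticoid receptor among them. Ameloblasts, the epithelial cells of the enamel organ, secrete large amounts of matrix protein, and that secreted protein is folded in the endoplasmic reticulum by other chaperones, which are not among these genes.

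Of the 46 genes, 45 had enough reads for the test, and Hspb2, whose highest count in any mouse was 8, did not. Total counts were 18056774 to 32110160 per library in ELA and 18683431 to 20831736 in controls. Values per mouse are CPM (counts scaled to the library size after TMM correction) unless FPKM, which also divides by gene length, is named. Fold changes are log2 of ELA over control from edgeR's quasi-likelihood test, with the standard error (SE) and an adjusted p (Benjamini-Hochberg over 15909 genes, called at 0.05). Members given with a fold change but no p had an adjusted p of at least 0.994. Each mouse is called by its title. ELA titles begin t-205 or t-203 and control titles begin c-204 or c-202, what these numbers stand for is not stated in the labels, and the tests treat all mice as independent. Values are listed in the order t-205-1-1, t-205-1-3, t-203-1-3, t-203-1-4 and t-203-1-5 for ELA, and c-204-1-1, c-204-1-2, c-202-1-1 and c-202-1-2 for controls. The library t-203-1-4 stood apart from the others on the first principal component, and the 12 neuron markers summed there to 766 CPM, against 70.0 to 124 CPM in the other ELA mice and 66.4 to 97.0 CPM in control mice. Ameloblast markers were abundant in all libraries, at a summed 104790 to 167800 CPM in ELA and 78824 to 104360 CPM in controls.

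Heat shock elements are shown because most of the inducible promoters searched hold them. Most constitutive promoters do not, and neither do most promoters of all genes. The inducible class was assigned from knowledge of the heat shock response, so its higher share is not independent of that choice. RefSeq promoter windows on GRCm38.p6, from 250 bases before to 50 bases after the start, were found for 37 of the 46 genes, 14 of them inducible, and were searched on both strands for a pair of inverted units (GAANNTTC or TTCNNGAA) and for 3 alternating units in a row with NN between them, which always contains a pair. A pair of units was found for 11 of 14 inducible genes (78.6%) and 5 of 22 constitutive genes (22.7%), against 17.0% of 27025 genes. A run of at least 3 units was found for 4 of 14 inducible genes (28.6%) and 1 of 22 constitutive genes (4.55%), against 0.662% of all genes. The 5 genes with at least 3 units are shown with the matched letters in capitals, which make up 3 units in Hsph1 and Dnajb6, 4 in Hspe1 and Hspd1, and 5 in Chordc1. Hspe1 and Hspd1 share a single stretch read from opposite strands.
Hsph1, chr5:149636280-149636309, minus strand: tgctgcagaTTCTGGAAAGTTCtcctcagt
Hspe1, chr1:55088053-55088082, plus strand: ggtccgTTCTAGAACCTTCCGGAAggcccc
Hspd1, chr1:55088053-55088082, minus strand: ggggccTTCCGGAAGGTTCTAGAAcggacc
Chordc1, chr9:18292259-18292288, plus strand: accgGAACGTTCGGGAAAATTCCTGAAgca
Dnajb6, chr5:29735843-29735872, plus strand: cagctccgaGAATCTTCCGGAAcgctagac
The pair of units in Hspa1a and Hspa1b, and those of Hspb1, are shown next, because their values are set side by side further on.
Hspa1a, chr17:34972242-34972271, minus strand: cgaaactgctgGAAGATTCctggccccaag
Hspa1b, chr17:34959324-34959353, minus strand: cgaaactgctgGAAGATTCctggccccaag
Hspb1 (distal pair), chr5:135887791-135887820, plus strand: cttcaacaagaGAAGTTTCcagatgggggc
Hspb1 (proximal pair), chr5:135887811-135887840, plus strand: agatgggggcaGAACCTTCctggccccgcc
The run of units in Hsph1 lies 16 to 28 bases after 1 of its annotated starts and 37 to 49 bases after another. The 30 bases shown for Hspa1a and Hspa1b are the same, and the 250 bases upstream of both genes were identical at 247 positions (98.8%). Dnajb1, Ahsa1 and Stip1 had no match in these windows, and a match is a description of letters, not of binding.

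Most of the 45 genes had a somewhat higher mean in ELA than in control enamel organs, led by Hspa1b, Hspa1a and Hsph1, and none passed the adjusted p in edgeR. The fold change was positive in 36 of the 45 genes and negative in 9 (80% positive, against 52.6% of the 15909 genes tested), with a median of 0.11 beside 0.01 over all genes. The genes were chosen with earlier results of these data known, so this share and the counts below are not independent of that choice. At an unadjusted p below 0.05 in edgeR, 9 of 45 were higher (20%) and 0 were lower, beside 3.56% and 2.89% of all genes. The same counts were 10 and 0 in DESeq2, beside 3.85% and 3.17% of all genes, and 8 and 0 in limma-voom, beside 3.02% and 3.28%. At the adjusted p edgeR called 0 of 45, beside 10 of all genes (0.0629%, or 0.0377% higher and 0.0251% lower). DESeq2 called 3 of 45 (Hsph1, Hspa8 and Hspa1b, each higher in ELA), beside 140 of 15728 genes (0.89%, or 0.502% higher and 0.388% lower). Limma-voom called 0 of 45, beside 0.0566% of all genes (0.0377% higher and 0.0189% lower). With TMM scaling, every ELA mouse lay above every control mouse in 5 of 45 genes (11.1%), beside 1.39% of all genes. These were Hsph1, Hspa1b, Hspa8, Hspd1 and Hspa9. With plain library totals, Hspa1b and Hspd1 overlapped between the groups. No member lay below all controls in every ELA mouse, beside 1.29% of all genes. Among all 4117 genes with a mean of at least 50 CPM, a level chosen after the values were seen, 58.4% had a positive fold change and 1.97% had every ELA mouse above every control mouse. The count of 9 was 4 without the control mouse c-202-1-2, which was the lowest of the 9 mice for 21 of the 45 genes.

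**Figure D1:**
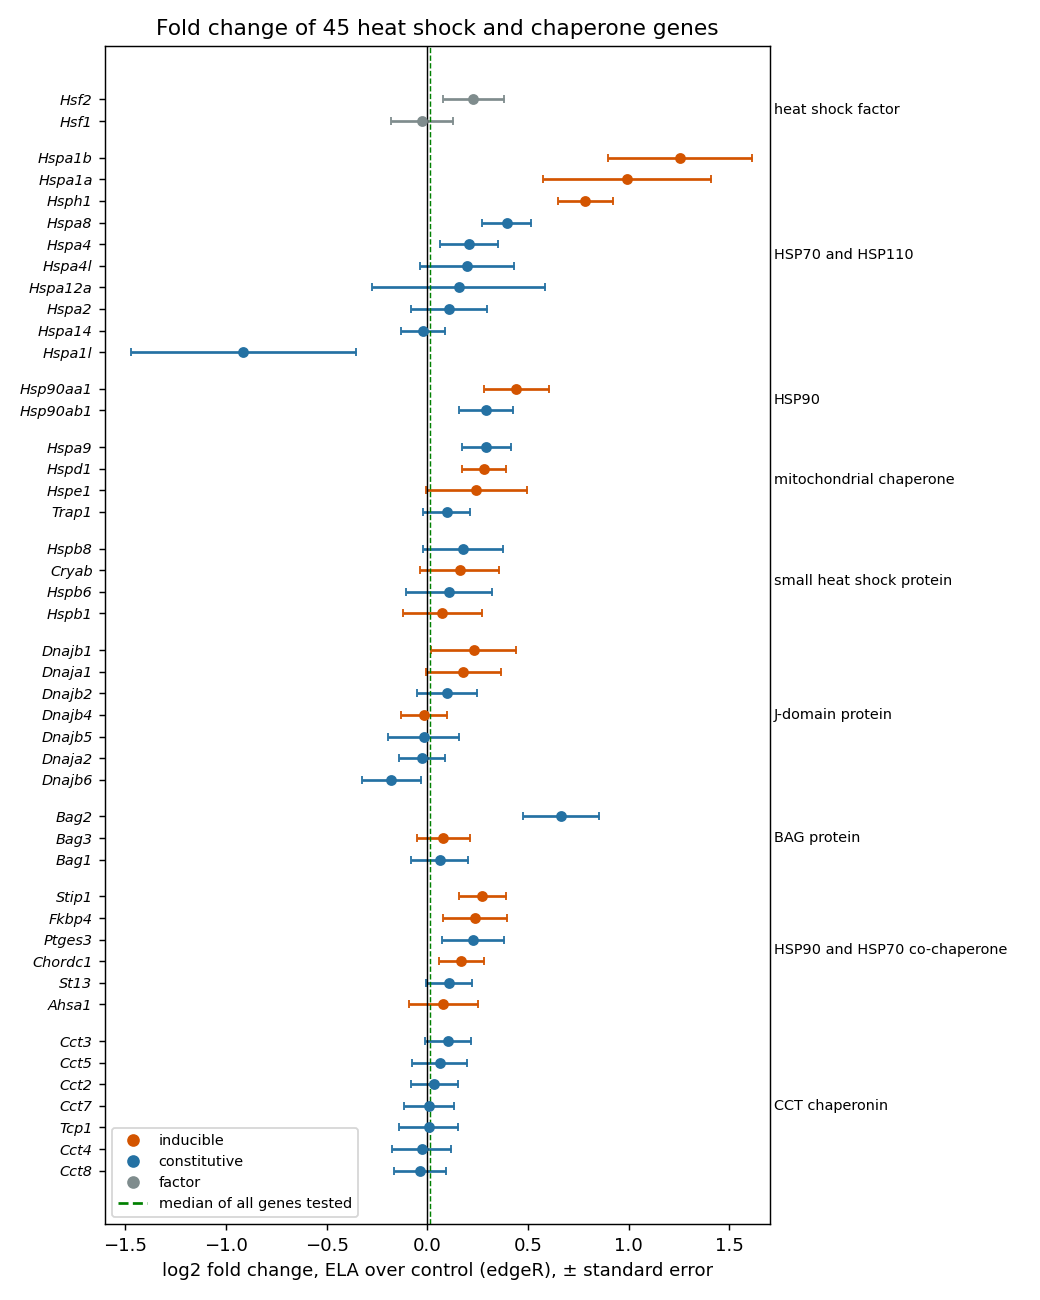
Log2 fold change of ELA over control for the 45 tested genes (x axis, edgeR, bars are the standard error), grouped by family and coloured by class, with the median of all genes tested as a dashed line. Hspa1b, Hspa1a and Hsph1 lie farthest to the right and the CCT subunits lie at the line.

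The transcripts of both factors overlapped between the groups. Hsf1 had 31.8, 28.7, 31.9, 23.0 and 35.4 CPM in ELA mice, against 26.3, 29.2, 29.4 and 37.9 CPM in control mice. The control mice spanned most of the ELA range, with a mean of 30.2 ± 4.65 CPM in ELA (SD, n = 5) and 30.7 ± 5.03 CPM in controls (SD, n = 4), and a log2 fold change of -0.03 (SE 0.15, edgeR adjusted p = 0.999). Hsf2, a related factor that can form mixed trimers with HSF1, had 20.5, 20.9, 19.1, 24.8 and 15.7 CPM in ELA mice and 19.7, 16.4, 17.1 and 15.7 CPM in control mice, and also overlapped (log2 fold change 0.23, SE 0.15, adjusted p = 0.917). HSF1 is regulated mainly after translation, so its transcript level is not a measure of its activity.

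Hspa1b, Hspa1a and Hsph1 had the largest positive fold changes of the 45 genes. Hsph1 encodes HSP110 (HSP105), the nucleotide exchange factor of HSP70, and lies on chromosome 5 from 149614287 to 149636376 (minus strand, GRCm38). It had 59.5, 75.2, 58.0, 68.9 and 82.0 CPM in ELA mice, against 37.4, 35.7, 43.3 and 43.1 CPM in control mice. Every ELA mouse lay above every control mouse. The mean was 68.7 ± 10.2 CPM in ELA (SD, n = 5) and 39.9 ± 3.90 CPM in controls (SD, n = 4), a log2 fold change of 0.79 (SE 0.14). The edgeR adjusted p was 0.0791 (unadjusted p = 9.3e-05, the 18th smallest of 15909), the DESeq2 adjusted p was 0.00012 and the limma-voom adjusted p was 0.0884. With any 1 mouse left out the fold change was 0.72 to 0.84 and the edgeR adjusted p 0.0811 to 0.399, and over all 21 alternatives the adjusted p ran from 0.00012 in DESeq2 to 0.9996 without the c-204 mice.

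Hspa1b and Hspa1a encode near-identical inducible HSP70 proteins and lie beside each other on chromosome 17 (34956436 to 34959238 and 34969190 to 34972156, minus strand). Hspa1b had 78.1, 139.8, 56.9, 59.1 and 177.7 CPM in ELA mice, against 53.7, 31.2, 37.2 and 49.5 CPM in control mice. With TMM scaling the groups did not overlap, but the lowest ELA mouse was close to the highest control mouse. With plain library totals they overlapped, since t-203-1-3 had 1095 of 20412510 counts and c-202-1-2 had 1032 of 18807658. The mice t-203-1-5 and t-205-1-3 were far above the other 3 ELA mice. The mean was 102.3 ± 53.9 CPM in ELA (SD, n = 5) and 42.9 ± 10.5 CPM in controls (SD, n = 4), a log2 fold change of 1.25 (SE 0.36, edgeR adjusted p = 0.417, DESeq2 adjusted p = 0.0243, limma-voom adjusted p = 0.439). Without t-203-1-5 the fold change was 0.96. Hspa1a had 18.2, 35.8, 15.4, 10.9 and 48.3 CPM in ELA mice, against 17.2, 8.43, 13.1 and 13.1 CPM in control mice. Here the groups overlapped, 3 of 5 ELA mice lay above the highest control mouse, and the same 2 ELA mice were the highest (log2 fold change 0.99, SE 0.42, edgeR adjusted p = 0.714, DESeq2 adjusted p = 0.347). The 2 transcripts share 1350 stretches of 100 bases, which is 47.1% of those of Hspa1a and 49.9% of those of Hspa1b, so the split of reads between them is uncertain. The ratio of Hspa1b to Hspa1a counts was 3.68 to 5.43 in ELA mice and 2.84 to 3.77 in control mice.

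Hspa8 encodes HSC70, the constitutive HSP70 of the cytosol (chromosome 9, 40800984 to 40810087, plus strand). It had 1681, 1648, 1652, 1635 and 1671 CPM in ELA mice, against 1273, 1304, 1331 and 1135 CPM in control mice. Every ELA mouse lay above every control mouse. The SD of log2 CPM was 0.016 in ELA and 0.103 in controls, but 0.0714 in ELA and 0.0237 in controls with plain library totals, so which group was tighter turned with the scaling. The log2 fold change was 0.39 (SE 0.12, edgeR adjusted p = 0.480, DESeq2 adjusted p = 0.00058, limma-voom adjusted p = 0.439), and 0.35 to 0.42 with any 1 mouse left out. Without TMM scaling the groups still did not overlap, since Hspa8 took 0.153 to 0.170% of all counts in ELA libraries and 0.126 to 0.131% in control libraries. Across all members the share of counts was 0.720 to 0.820% in ELA and 0.663 to 0.716% in controls.

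**Figure D2:**
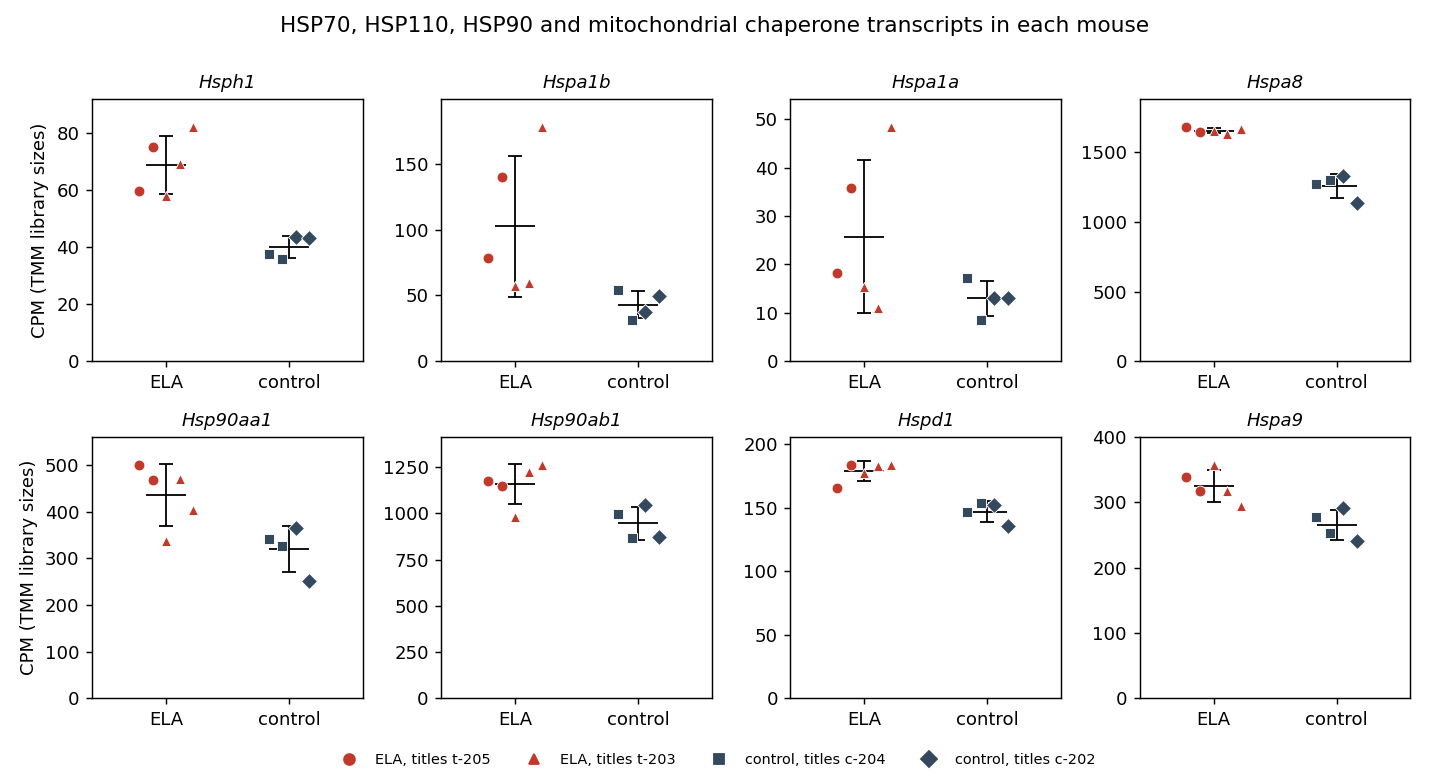
CPM with TMM library sizes (y axis from 0) of 8 HSP70, HSP110, HSP90 and mitochondrial chaperone genes in each ELA mouse (red, left) and control mouse (blue, right), with marker shape by title number, the mean as a line and the SD as the error bar. Hspa8 lies at 1635 to 1681 CPM in ELA and 1135 to 1331 CPM in controls, and Hspa1b and Hspa1a reach their highest values in t-203-1-5.

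None of the other 6 genes of this family of 10 had an unadjusted p below 0.05. Hspa4, a constitutive HSP110, had 242.2, 202.5, 211.1, 247.3 and 167.9 CPM in ELA mice, against 199.9, 169.7, 203.03 and 170.3 CPM in control mice, which overlapped (log2 fold change 0.21, SE 0.14, edgeR adjusted p = 0.934). Hspa1l, a testis-enriched HSP70, had only 1 to 9 counts per library in ELA and 9 to 15 counts in controls, at a log2 fold change of -0.91 (SE 0.56, edgeR adjusted p = 0.894). It shares 1778 exonic bases with Gm10501 on the opposite strand, and the strand setting of the counting is not given in the sources used here. Together with Hspa2, Hspa4l, Hspa12a and Hspa14, the 10 HSP70 and HSP110 genes had 8 positive and 2 negative fold changes and a median of 0.20.

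Both cytosolic HSP90 genes were higher on average in ELA and overlapped with controls. Hsp90aa1, the inducible HSP90 alpha, had 500.7, 467.0, 336.5, 470.1 and 403.0 CPM in ELA mice, against 340.4, 325.4, 365.3 and 251.0 CPM in control mice. The ELA mouse t-203-1-3 lay within the control range and the other 4 lay above it (log2 fold change 0.44, SE 0.16, unadjusted p = 0.0179, edgeR adjusted p = 0.616). Hsp90ab1, the constitutive HSP90 beta, had 1172, 1146, 979.4, 1225 and 1263 CPM in ELA mice, against 998.5, 867.0, 1047 and 869.5 CPM in control mice. Again t-203-1-3 was the 1 ELA mouse within the control range (log2 fold change 0.29, SE 0.14, edgeR adjusted p = 0.789). The ratio of the inducible to the constitutive HSP90 count was 0.319 to 0.427 in ELA and 0.289 to 0.375 in controls, and so overlapped.

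The co-chaperones of HSP90 and HSP70 all had positive fold changes, with a median of 0.20 over 6 genes and no adjusted p below the threshold. Stip1 (HOP), which joins HSP70 to HSP90, had 111.9, 119.5, 126.9, 123.5 and 138.8 CPM in ELA mice, against 92.2, 100.3, 117.1 and 101.1 CPM in control mice. Of the ELA mice, 4 of 5 lay above the highest control mouse (log2 fold change 0.27, SE 0.12, unadjusted p = 0.0385, edgeR adjusted p = 0.715). Fkbp4 (FKBP52), the immunophilin that raises glucocorticoid receptor activity in HSP90 complexes, had 125.6, 212.9, 181.5, 172.9 and 206.2 CPM in ELA mice, against 138.8, 142.8, 165.6 and 162.9 CPM in control mice (log2 fold change 0.24, adjusted p = 0.924).
Chordc1, an HSP90-binding protein with a run of 5 units in its promoter, had 59.1, 70.3, 60.4, 64.5 and 57.0 CPM in ELA mice, against 52.3, 58.6, 60.1 and 50.5 CPM in control mice (log2 fold change 0.17, adjusted p = 0.916). Ahsa1, which stimulates the ATPase of HSP90, had 51.9, 71.0, 86.5, 58.9 and 86.0 CPM in ELA mice, against 56.4, 75.2, 74.7 and 62.2 CPM in control mice, at a log2 fold change of 0.08. Both genes overlapped between the groups. Ptges3 (p23), which stabilises closed HSP90, had 96.9, 84.3, 79.0, 102.8 and 72.3 CPM in ELA mice, against 93.1, 72.8, 72.3 and 59.6 CPM in control mice (log2 fold change 0.23, adjusted p = 0.926). St13 (HIP), which holds HSP70 in its ADP state, had 106.0, 109.99, 106.8, 118.5 and 102.5 CPM in ELA mice, against 105.0, 104.1, 109.6 and 84.6 CPM in control mice, at a log2 fold change of 0.11.

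Among the mitochondrial chaperones, the import motor and the chaperonin subunit HSP60 were separated between the groups with TMM scaling, while their partners were not. Hspa9 (mortalin), the HSP70 of the matrix, had 338.7, 317.5, 357.6, 316.7 and 294.0 CPM in ELA mice, against 277.9, 252.4, 291.1 and 240.4 CPM in control mice. The groups came close but did not overlap (log2 fold change 0.29, SE 0.12, unadjusted p = 0.0343, edgeR adjusted p = 0.702). Hspd1 (HSP60) had 165.8, 183.9, 177.0, 183.1 and 183.7 CPM in ELA mice, against 146.4, 153.8, 152.1 and 135.7 CPM in control mice, again without overlap (log2 fold change 0.28, SE 0.11, unadjusted p = 0.023, edgeR adjusted p = 0.658). With plain library totals Hspd1 overlapped between the groups, since t-205-1-1 had 3032 of 20142086 counts and c-204-1-2 had 3193 of 20831736.
Hspe1 (HSP10), the lid of HSP60, is driven from the same short region and holds the same heat shock element shown for Hspd1. It had 49.4, 63.6, 85.6, 41.7 and 102.5 CPM in ELA mice, against 44.6, 69.0, 65.0 and 53.1 CPM in control mice. The ELA mice spanned the whole control range and beyond on both sides, in contrast with Hspd1 (log2 fold change 0.24, SE 0.25, adjusted p = 0.993). The exons of Hspd1 and Hspe1 share 112 bases on opposite strands. Trap1, the mitochondrial HSP90, had 84.9, 71.6, 77.6, 73.5 and 74.01 CPM in ELA mice, against 72.2, 74.4, 79.9 and 59.3 CPM in control mice, at a log2 fold change of 0.10.

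The small heat shock proteins, which hold unfolded clients without using ATP, overlapped between the groups for the 4 tested genes, of which Hspb1 and Hspb8 were abundant and Cryab and Hspb6 were below 10 CPM in every mouse. Hspb1 (HSP25 in mouse) had 241.8, 304.0, 245.2, 158.6 and 306.1 CPM in ELA mice, against 207.3, 203.6, 276.0 and 268.1 CPM in control mice. The lowest mouse of all was the ELA mouse t-203-1-4, and the log2 fold change was 0.07 (SE 0.20). Its promoter holds the 2 pairs of units shown above. Hspb8, the partner of BAG3, had 230.2, 244.0, 317.0, 195.5 and 211.8 CPM in ELA mice, against 139.8, 242.0, 259.0 and 208.1 CPM in control mice (log2 fold change 0.18). Cryab (alpha B-crystallin) had 6.40, 9.31, 8.21, 5.99 and 9.64 CPM in ELA mice, against 6.86, 8.33, 6.60 and 6.52 CPM in control mice, at a log2 fold change of 0.16. Cryab and Hspb2 share 252 exonic bases on opposite strands. Hspb6 (HSP20) had 7.001, 6.13, 3.90, 5.60 and 4.91 CPM in ELA mice, against 5.33, 4.72, 4.55 and 5.80 CPM in control mice, at a log2 fold change of 0.11.

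The J-domain proteins were split in sign, with 3 positive and 4 negative fold changes and a median of -0.02. Dnajb1 (HSP40), the main inducible partner of HSP70, had 101.0, 146.0, 81.9, 77.5 and 148.2 CPM in ELA mice, against 112.9, 87.2, 95.6 and 82.7 CPM in control mice. The mice t-205-1-3 and t-203-1-5 were highest, as for Hspa1b, while 2 ELA mice lay below every control mouse (log2 fold change 0.23, SE 0.21, adjusted p = 0.980). Dnaja1, a farnesylated HSP40, had 158.1, 208.6, 238.4, 177.2 and 301.1 CPM in ELA mice, against 172.0, 213.5, 206.1 and 174.2 CPM in control mice (log2 fold change 0.18), and it shares 608 exonic bases with Smu1 on the opposite strand.
Dnajb4, a further inducible J-domain partner of HSP70, had 36.2, 41.0, 38.1, 31.8 and 39.8 CPM in ELA mice, against 37.9, 40.8, 38.0 and 34.6 CPM in control mice, at a log2 fold change of -0.02. Dnajb6, which suppresses aggregation of polyglutamine proteins, had 93.0, 80.5, 97.2, 78.1 and 91.3 CPM in ELA mice, against 89.45, 116.7, 116.0 and 76.6 CPM in control mice. It was the constitutive gene with 3 units in its promoter and had a negative log2 fold change of -0.18 (SE 0.15, adjusted p = 0.963). Dnajb2 (HSJ1), a J-domain protein abundant in neurons, had 20.6, 26.9, 22.2, 23.0 and 27.7 CPM in ELA mice, against 18.2, 23.0, 21.7 and 27.0 CPM in control mice, at a log2 fold change of 0.10.

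Of the BAG proteins, which release nucleotide from HSP70, Bag2 differed most. Bag2, an inhibitor of the ubiquitin ligase CHIP, had 11.5, 14.6, 14.7, 14.5 and 14.5 CPM in ELA mice, against 9.39, 7.95, 6.25 and 11.6 CPM in control mice. The highest control mouse, c-202-1-2, lay just above the lowest ELA mouse, t-205-1-1, and the other 4 ELA mice lay above all controls. The mean was 13.9 ± 1.34 CPM in ELA (SD, n = 5) and 8.80 ± 2.27 CPM in controls (SD, n = 4), a log2 fold change of 0.66 (SE 0.19, unadjusted p = 0.0043, edgeR adjusted p = 0.407). Bag3, an HSF1 target that leads HSP70 clients to autophagy, had 52.7, 63.9, 45.6, 44.9 and 52.5 CPM in ELA mice, against 55.9, 44.0, 47.7 and 49.0 CPM in control mice, at a log2 fold change of 0.08. Bag1, which links HSP70 to the proteasome, had 206.1, 167.3, 163.1, 166.6 and 159.4 CPM in ELA mice, against 175.5, 160.8, 192.3 and 132.6 CPM in control mice, at a log2 fold change of 0.06.

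The CCT chaperonin, the ring that folds actin and tubulin, had fold changes on both sides of 0. The 7 measured subunits had log2 fold changes of -0.04 to 0.10 with a median of 0.01, 5 positive and 2 negative. With plain library totals 2 were positive and the median was -0.05, and the median over all genes tested was then also -0.05. Cct3 had 131.8, 134.2, 146.6, 136.1 and 149.3 CPM in ELA mice, against 126.0, 142.1, 136.7 and 115.2 CPM in control mice (log2 fold change 0.10). Cct5 had 210.3, 203.1, 188.7, 192.4 and 172.9 CPM in ELA mice, against 194.6, 199.0, 204.9 and 142.9 CPM in control mice (log2 fold change 0.06). Without c-202-1-2, the lowest mouse for Cct5, its log2 fold change was -0.04. The 11 genes not given one by one had log2 fold changes of -0.04 to 0.20 and adjusted p of at least 0.999, at 1.61 to 264.6 CPM.

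The inducible class had the higher median fold change. In it the mice differed more in ELA than in controls, as they also did over all genes tested. The median was 0.23 over 16 inducible genes (15 positive, 1 negative) and 0.10 over 27 constitutive genes (20 positive, 7 negative). Over all genes tested it was 0.01, with 52.6% positive. At an unadjusted p below 0.05 in edgeR, 6 of 16 inducible genes (37.5%) and 3 of 27 constitutive genes (11.1%) were higher, beside 3.56% of all genes. The difference between the classes was not tested, because the genes were grouped with earlier results known. With plain library totals the medians were 0.18 and 0.04, beside -0.05 over all genes tested. Summed over the class, inducible transcripts came to 1816, 2212, 1842, 1750 and 2343 CPM in ELA mice, against 1572, 1598, 1764 and 1537 CPM in control mice. The ELA mouse t-203-1-4 lay within the control range. As a share of all counts the class took 0.165, 0.224, 0.174, 0.182 and 0.236% in ELA mice, against 0.160, 0.159, 0.173 and 0.170% in control mice, and there t-205-1-1 was the ELA mouse within the control range. Constitutive transcripts came to 6120, 5760, 5746, 5746 and 5740 CPM in ELA mice, against 5075, 5150, 5491 and 4391 CPM in control mice, with no overlap, and took 0.542 to 0.598% of all counts in ELA and 0.487 to 0.539% in controls.

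**Figure D3:**
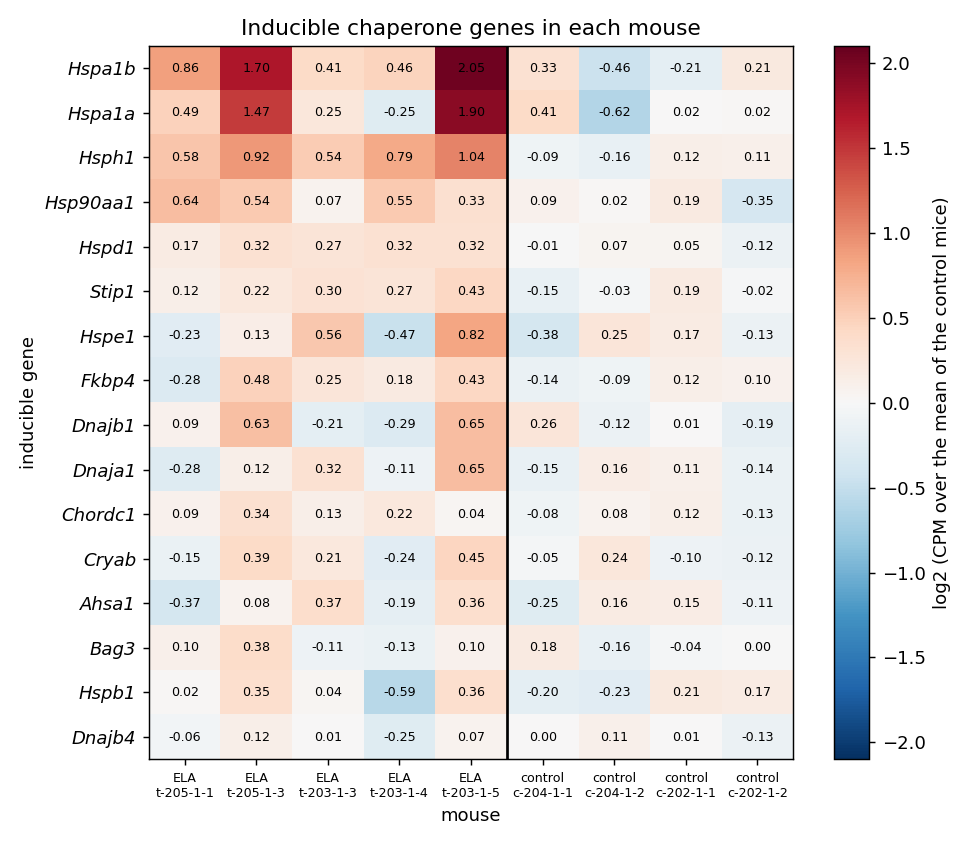
Log2 ratio of CPM in each mouse (columns, ELA left of the line and control right of it) to the mean of the control mice, for the 16 inducible genes (rows, ordered by the edgeR log2 fold change). The columns of t-205-1-3 and t-203-1-5 are above 0 in all 16 genes, and t-203-1-4 in 7 of 16.

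Within ELA, the level of the inducible genes differed from mouse to mouse. The highest of the 9 mice was t-203-1-5 for 9 of 16 inducible genes and t-205-1-3 for 5, and no control mouse was the highest for any. Over all genes tested, t-203-1-5 was the highest for 14.4%, t-205-1-3 for 6.91% and each control mouse for 7.81 to 10.2%. Relative to the control mean, all 16 genes were higher in t-205-1-3 (median log2 ratio 0.36) and in t-203-1-5 (0.43), 14 were higher in t-203-1-3 (0.25), 10 in t-205-1-1 (0.09) and 7 in t-203-1-4 (-0.12). The 2 mice with the highest inducible levels carry different title numbers. They also had the highest sums of 20 immediate-early genes, which answer to acute stimuli and tissue handling, and, within ELA, of the 8 mesenchyme and fibroblast markers. The immediate-early sums were 603, 879, 762, 550 and 928 CPM in ELA mice, against 560, 646, 698 and 833 CPM in control mice. Gadd45b alone made up 222.5 CPM of the sum in t-205-1-3 and 252.6 CPM in t-203-1-5, against 44.6 to 195.3 CPM in control mice. Other genes of the list went the other way. Ier3 and Myc lay below every control mouse in both of these ELA mice. Fos did so in t-205-1-3 (12.8 CPM, against 13.1 to 32.7 CPM in control mice), but not in t-203-1-5 (23.8 CPM). The mesenchyme sums were 12057, 18989, 11961, 13111 and 23326 CPM in ELA mice, against 28243, 24909, 15643 and 30951 CPM in control mice. The part of either in the inducible levels was not tested. Of the immediate-early genes, 7 of 20 had a positive and 13 a negative fold change between groups. At an unadjusted p below 0.05 in edgeR 0 were higher and 2 were lower, beside 3.56% and 2.89% of all genes. Every ELA mouse lay below every control mouse in 3 of the 20, beside 1.29% of all genes.

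The SD of log2 CPM between mice had a median of 0.31 in ELA and 0.16 in controls over the inducible genes, and was larger in ELA for 12 of 16. Over the constitutive genes it was 0.14 in ELA and 0.23 in controls, and was larger in ELA for 7 of 27. Over all genes tested it was 0.33 in ELA and 0.26 in controls, and was larger in ELA for 10483 of 15909. With plain library totals, an alternative added after the values were seen, the inducible genes had a median SD of 0.34 in ELA and 0.17 in controls. It was larger in ELA for 16 of 16. The constitutive genes had 0.13 in ELA and 0.16 in controls, larger in ELA for 14 of 27. All genes tested had 0.33 in ELA and 0.26 in controls under the same totals, larger in ELA for 10485 of 15909. The count for the constitutive genes thus depends on the scaling. The control mouse c-202-1-2 was the lowest of the 9 mice for 17 of the 27 constitutive genes, beside 1415 of all 15909 genes, so 1 control mouse enters the constitutive spread and the constitutive fold changes alike. Without it the median fold change of the constitutive genes was 0.04.

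**Figure D4:**
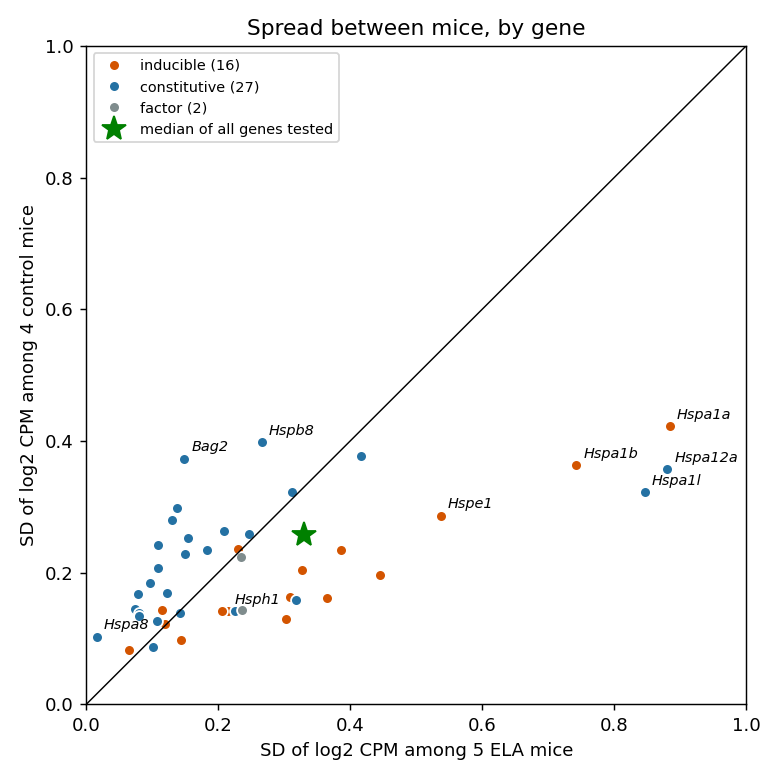
SD of log2 CPM among the 5 ELA mice (x axis) and among the 4 control mice (y axis) for each tested gene, coloured by class, with equal values on the diagonal and the median of all genes tested as a star. With TMM library sizes, 12 of 16 inducible genes and 7 of 27 constitutive genes lie below the diagonal, against 16 and 14 with plain library totals. Over all 15909 genes tested, the SD was larger in ELA for 10483 with TMM library sizes and 10485 with plain library totals.

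By level per gene length, the most abundant members were HSP90 beta at 386 ± 36.4 FPKM in ELA and 315 ± 30.4 FPKM in controls, and HSC70 (Hspa8) at 385 ± 4.27 FPKM in ELA and 293 ± 20.3 FPKM in controls (SD, n = 5 and n = 4). Within each group, HSP90 beta and HSC70 did not differ from each other beyond their spread. Hspb1 followed at 244 ± 58.4 FPKM in ELA and 232 ± 37.4 FPKM in controls, then Bag1 at 128 ± 14.1 FPKM in ELA and 123 ± 18.8 FPKM in controls, Hspb8 at 123 ± 24.1 FPKM in ELA and 109 ± 27.0 FPKM in controls, and Hsp90aa1 at 111 ± 16.7 FPKM in ELA and 81.5 ± 12.5 FPKM in controls. In ELA the levels of Bag1, Hspb8 and Hsp90aa1 lay within their spread of each other. The least abundant tested member was Hspa1l, at 0.121 ± 0.0751 FPKM in ELA and 0.228 ± 0.0637 FPKM in controls.

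Chaperone genes outside the 46 had fold changes of both signs. Of 53 other chaperones and co-chaperones 48 were tested, 30 with a positive and 18 with a negative fold change, at a median of 0.05. At an unadjusted p below 0.05 in edgeR 0 were higher or lower, beside 3.56% higher and 2.89% lower of all genes. The smallest p values in each direction belonged to Sgta (0.24), a co-chaperone of HSP70, and Dnajb13 (0.40), a J-domain protein of sperm and cilia, both positive, and to Hsf5 (-0.58), a testis factor, and Pdcl (-0.19), a partner of the CCT ring, both negative. Cct6a, the CCT subunit not among the 46, had a log2 fold change of 0.01. Of 14 other HSF1 targets and regulators 7 were positive and 7 negative, at a median of 0.00, and 0 passed an unadjusted p below 0.05. Among those with the smallest p were Mlf1 (0.31) as positive, and Sqstm1 (-0.15), the autophagy adaptor p62, and Serpinh1 (-0.15), the collagen chaperone HSP47, as negative. Ier3 (-0.83, unadjusted p = 0.010, edgeR adjusted p = 0.534) and Myc (-0.63, unadjusted p = 0.020, edgeR adjusted p = 0.632), both immediate-early genes, had the smallest p among those that were lower, and Gadd45b (0.90) and Zfp36 (0.21) among those that were higher.

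Marker genes of the cell types in the tissue pieces were summed in each mouse. Of 8 ameloblast markers 7 had a positive fold change, and their summed level did not overlap between ELA and controls, as given above. All 8 mesenchyme and fibroblast markers had a negative fold change, 5 of them at an unadjusted p below 0.05 in edgeR, beside 2.89% of all genes. Their sum was 11961 to 23326 CPM in ELA and 15643 to 30951 CPM in controls. Red blood cell markers summed to 160 to 378 CPM in ELA and 364 to 862 CPM in controls, leukocyte markers to 82.2 to 137 CPM in ELA and 105 to 153 CPM in controls, and osteoclast markers to 186 to 672 CPM in ELA and 400 to 687 CPM in controls. Endothelial markers summed to 314.5 to 364 CPM in ELA and 297 to 380 CPM in controls, smooth muscle and pericyte markers to 610 to 1012 CPM in ELA and 631 to 879 CPM in controls, skeletal muscle markers to 75.0 to 129.5 CPM in ELA and 34.9 to 147 CPM in controls, and proliferation markers to 132 to 249.1 CPM in ELA and 150 to 186 CPM in controls. The part of these differences in the chaperone values was not tested. In such whole-tissue samples, more cells of a type and more RNA per cell cannot be told apart. With t-203-1-4 left out, the log2 fold change was 0.78 for Hsph1, 1.40 for Hspa1b and 0.40 for Hspa8.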

How the data were processed

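The authors deposited whole-number counts per Ensembl gene, made by a sequencing company from poly(A)-captured RNA. CASAVA, HISAT and HISAT2 are listed in the submitters' processing notes without versions. For the read counter, the use of strand and the build, nothing is given in the sources used here. All 46 genes were found in GENCODE M21, 44 with identical coordinates, and positions are therefore on GRCm38. Gene lengths were taken from the deposited table. Promoters are RefSeq windows.

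Libraries were compared with edgeR 4.0.16 in R 4.3.3 (filterByExpr with a count minimum of 10, TMM, robust glmQLFit, glmQLFTest, Benjamini-Hochberg over 15909 genes). DESeq2 1.42.0 and limma-voom 3.58.1, other scalings, no filter, each mouse or title number left out, and counts summed by title number were alternatives. Log2 CPM used a prior count of 2. The scripts were tested on simulated data. Pairs of libraries within a group differed beyond counting noise (chi-square over degrees of freedom from 21.3 to 134.4), and each library was counted as a replicate. The chi-square shows only that the libraries were not repeats of each other. It does not show that mice of the same litter or title number are independent. There were 0 columns without a sample.

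The members, classes and lists were chosen with earlier results of these data known. Values per mouse are given for both factors, the inducible genes, Hspa8, Hsp90ab1 and, in each family, the 2 other genes with the smallest unadjusted p. From each of the other lists, the 2 genes of smallest p in each direction are named, except 1 that is not reported here. Cct6a was named in addition, after its values were seen.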

Additional observations from a re-analysis of the deposited data

Results flagged for a closer look

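In each group of 4 or 5 mice, the gap between the highest or lowest mouse and its nearest neighbour was set against the whole range with Dixon's 95% limit. Over 90 groups (45 genes in ELA and in controls) 6 exceeded it, where chance gives about 4.5 (1 in 20). In ELA, t-205-1-1 was high for Hspa4l (264.6 CPM, others 130.3 to 156.2 CPM) and Bag1 (206.1 CPM, others 159.4 to 167.3 CPM), and low for Bag2 (11.5 CPM, others 14.5 to 14.7 CPM). The ELA mouse t-203-1-4 was high for Hspa12a (9.27 CPM, others 1.61 to 3.66 CPM), the gene for an HSP70 relative that is abundant in brain, and this is also the library with the high neuron marker sum, whose part in the value was not tested. The ELA mouse t-203-1-3 was high for Cct2 (231.2 CPM, others 202.1 to 208.7 CPM). In controls, c-202-1-2 was low for Cct5 (142.9 CPM, others 194.6 to 204.9 CPM).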

How the results depend on the processing

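No paired analysis was possible because the replicate numbers only name the mice and the title numbers differ between the groups. Over the 21 alternatives 0 members were called lower in any, and the medians of both classes stayed positive. Of all genes, edgeR called 6 higher and 4 lower. DESeq2 called 79 and 61, no filter 22 and 16, plain totals 2 and 2, and leaving out 1 mouse 0 to 16 and 0 to 9. Without the mice titled t-205 it was 44 and 15, without c-204 0 and 0, without c-202 0 and 1, without t-203 0 lower, and with counts summed by title number 3 and 0. Among members, 0 were called higher by edgeR, 3 by DESeq2, 1 without a filter (Hsph1) and 1 with summed counts (Hspa1b). The 9 members higher at an unadjusted p were 5 with plain totals, 5 without a filter, 4 to 10 with 1 mouse left out, and 4 without t-203, c-204 or c-202.

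The sign turned for 11 of the 34 genes given one by one. It also turned, with 1 mouse left out, for each of the 11 tested genes not given one by one. Their widest range was -0.3667 to 0.3647, for Hspa12a, and Hspa4l ran from -0.0257 to 0.3077. The values that follow are for the genes given one by one. With 1 mouse left out, the log2 fold change ran from -0.093 to 0.0938 for Hsf1, from -0.0076 to 0.2002 for Hspb1, from -0.056 to 0.0359 for Dnajb4, from -0.0295 to 0.1414 for Bag1, from -0.007 to 0.1451 for Bag3 and from -0.0425 to 0.1128 for Cct5. Without the t-205 mice it was -0.0093 for Hspb1, -0.0816 for Hspb6, -0.0146 for Bag1 and -0.0405 for Bag3. Without the t-203 mice it was -0.0363 for Hspe1 (0.24 with all mice), -0.0626 for Dnaja1 (0.18 with all mice), 0.0277 for Dnajb4 and -0.128 for Ahsa1. Without the c-204 mice it was -0.1176 for Hspb1, -0.0196 for Dnajb2 and 0.0393 for Dnajb4, and without the c-202 mice 0.1128 for Hsf1 and -0.0333 for Cct5. The cause was not tested. Plain totals moved the median of all genes by -0.06, the largest shift of the scalings tried. Hspa1l and Hspb2 are limited by depth.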
